A study of Mus musculus with 38 samples.

Results

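The oligodendrocyte lineage genes Pdgfra, Cspg4, Olig1, Olig2, Sox10, Ptprz1 and Cspg5 were followed through every library of a ribosome profiling series on mouse cortical cultures. They were chosen by name, as 7 of the 22443 genes to which the deposited counts could be assigned, with earlier results of these data known. Each gene was represented by its longest coding transcript, and its level was the count in the coding sequence (CDS) per 1000000 CDS counts of the library (CPM). The series asked which mRNAs are translated near the postsynaptic site of neurons at rest and after activation, by purifying biotin-labelled ribosomes from cultures that express a biotin ligase.

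The cultures came from embryonic cortex of CD-1 mice and are labelled as primary cortical neuronal cultures. The study describes them as free of contaminating non-neuronal cells, by staining for the proteins GFAP and OLIG2 and by transcript levels. The footprint counts read here are another measure, and the number of lineage cells was not measured. All of them carried a doxycycline-inducible lentivirus, either TurboID-PSD95, a ligase carrying localisation elements of the postsynaptic protein PSD95, or Pan-TurboID, a ligase with no localisation signal. By the labels, every library comes from cells given cycloheximide for 2 min and biotin for 30 min, whereas the study's own description gives the DHPG cultures a shorter time in biotin. Each culture gave an input, a part of the monosome fraction, and a streptavidin pulldown from the same fraction. The KCl experiment held 24 libraries in 8 groups of 3, namely resting or depolarized cultures (55 mM KCl for 1 h after silencing with tetrodotoxin and DL-AP5) with either ligase, input and pulldown. The DHPG experiment held 6 libraries, input and pulldown of 3 TurboID-PSD95 cultures given 100 µM of the group I metabotropic glutamate receptor agonist DHPG for 10 min, with no resting group of its own. By the study's methods the DHPG cultures were silenced in the same way, then washed and returned to regular medium before the agonist. The knockdown experiment held 8 libraries in 4 groups of 2, resting or KCl-depolarized TurboID-PSD95 cultures given 20 nM siRNA against the translation initiation factor eIF4G2 for 72 h, and its non-targeting siRNA control was not analysed here. The description field of the DHPG inputs and the knockdown libraries names the cytosol, whereas their lentivirus field names PSD95-TurboID, and the latter was used. Total counts were 5906281 to 35643247 per library and CDS counts 2047169 to 14636018. The share of counts in the CDS was 12.5% to 49.2%. It was low in the depolarized replicate 1 libraries of the KCl experiment, at 12.5% to 24.8%, in the knockdown pulldowns, at 19.6% to 30.2%, and in 2 resting libraries of the KCl experiment, the Pan-TurboID input of replicate 1 at 25.7% and the TurboID-PSD95 pulldown of replicate 3 at 26.7%. Eif4g2 itself read 283.7 to 337.6 CPM in the 4 knockdown inputs against 444.6 to 811.4 CPM in the other 15 inputs.

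Oligodendrocyte progenitor cells arise in the embryonic and early postnatal forebrain, divide and migrate through the cortex, and later leave the cycle and form myelin. The transcription factors OLIG1, OLIG2 and SOX10 hold cells in the lineage and switch on its later genes, and the receptor PDGFRA receives the mitogen PDGF-AA, which keeps progenitors dividing. CSPG4, also called NG2, is the surface proteoglycan by which these cells are usually recognised. PTPRZ1, a receptor tyrosine phosphatase that carries chondroitin sulfate, and CSPG5, or neuroglycan C, are made by progenitors but also by other brain cells, PTPRZ1 by radial glia and astrocytes and CSPG5 by neurons. PDGFRA also marks fibroblast-like cells and CSPG4 pericytes, so no single member identifies the lineage by itself.

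The start codons of the 7 transcripts are shown because the counts depend on them. Reads were placed by their 5′ end with no offset, which puts a ribosome that sits on the start codon into the bases before it, so that it is counted in the 5′ untranslated region (UTR) and not in the CDS. Each line gives 12 bases before and 12 bases from the start, read from the transcripts of GENCODE M21, with the start codon in capitals, and each is the same in the mm10 genome.
Pdgfra: gtctcaggagctATGgggacctcc
Cspg4: agccccgccgcgATGcttctcggc
Olig1: cccccgccccagATGtactatgcg
Olig2: atccctggggccATGgactcggac
Sox10: gccgggagcgacATGgccgaggaa
Ptprz1: accgggctggagATGcgaatcctg
Cspg5: gggctccgcgcaATGggccgagct
In mm10 these windows lie at chr5:75162231-75162254 on the plus strand for Pdgfra, chr9:56865178-56865201 on the plus strand for Cspg4, chr16:91269865-91269888 on the plus strand for Olig1, chr16:91226388-91226411 on the plus strand for Olig2, chr15:79163705-79163728 on the minus strand for Sox10, chr6:22875815-22875838 on the plus strand for Ptprz1 and chr9:110245586-110245609 on the plus strand for Cspg5. The base at position -3, counted back from the A of the start codon, was a purine in 6 of the 7, all but Olig1, and in 84.3% of 20767 annotated starts. Pdgfra, Olig2 and Sox10 each had 1 ATG upstream of the start in their 5′ UTR and the other members had 0, while 55.2% of 20797 5′ UTRs held at least 1. These counts hold for the longest transcript alone. The Cspg5 transcript with the highest count has a 5′ UTR of 1815 nt against the 67 nt searched here. Olig2 and Olig1 are neighbours on chromosome 16, with 42505 nt between the end of the Olig2 CDS and the start of the Olig1 CDS.

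The transcripts differ widely in length, with a CDS of 783 nt in Olig1, 972 nt in Olig2, 1401 nt in Sox10, 1710 nt in Cspg5, 3270 nt in Pdgfra, 6939 nt in Ptprz1 and 6984 nt in Cspg4. The 3 transcription factors carried the largest share of their counts before the start codon. Over the 19 inputs, 39.2% of the Olig2 counts, 30.8% of the Sox10 counts and 23.7% of the Olig1 counts lay in the 5′ UTR. The share was 7.19% for Ptprz1, 5.90% for Cspg4, 3.37% for Cspg5 and 2.80% for Pdgfra. Set per nucleotide against the CDS, the 5′ UTR of Pdgfra was sparse, with a density of 0.204 of that of its CDS, which is percentile 7.79 of 12641 genes, whereas the all-gene median was 1.82. Cspg4 read 2.79, Olig2 2.52, Olig1 2.34, Sox10 1.79, Ptprz1 1.65 and Cspg5 0.928 on the same scale. These shares and densities depend on the transcript chosen. Another Pdgfra transcript with the same CDS length has a 5′ UTR of 164 nt against 463 nt here. The 3′ UTR held at most 0.740% of the counts of the members other than Cspg5. For Cspg5 it was 3.99%, but the 3′ UTR of its longest transcript takes in the last coding segment of the other 3 coding transcripts, among them the one with the highest count, so these counts include coding sequence. Of all windows of 28 bases, 2.55% of those in the Sox10 CDS, 0.423% of those in Olig2 and 0.0925% of those in Pdgfra also occur in a transcript of another gene, and 0 in the other members. The use of strand in counting was not given in the sources used here. Within the annotation, 30 nt of the Pdgfra CDS lie under another gene, the microRNA gene Mir7025, and 0 nt of the other members do.

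Per kb of CDS, Cspg5 stood highest and Cspg4 lowest. The mean over the 19 inputs was 298.7 CPM per kb for Cspg5 (percentile 97.6 of all 22443 genes), 175.4 for Ptprz1 (percentile 95.6), 126.4 for Olig1 (percentile 93.7), 38.1 for Olig2 (percentile 81.9), 20.3 for Pdgfra (percentile 72.5), 7.01 for Sox10 (percentile 58.1) and 5.99 for Cspg4 (percentile 56.4). Within the 12 inputs of the KCl experiment the means ± SD were 323.0 ± 49.5 CPM per kb for Cspg5, 209.5 ± 37.2 for Ptprz1, 155.5 ± 79.2 for Olig1, 52.0 ± 23.4 for Olig2, 29.9 ± 14.8 for Pdgfra, 9.82 ± 7.20 for Sox10 and 7.65 ± 4.48 for Cspg4. On this spread Ptprz1 and Olig1, Olig2 and Pdgfra, and Sox10 and Cspg4 were neighbours whose means differed by less than the larger of their SDs.

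Every member was read in every input. For the 6 members other than Cspg5 the DHPG inputs lay below every input of the other 2 experiments, whereas for Cspg5 they lay below the resting KCl experiment inputs and overlapped the depolarized and the knockdown inputs. How many of all genes separate in this way, here and for the single members below, was not counted. Pdgfra, the PDGF-AA receptor, read 152, 174 and 49.4 CPM in replicates 1, 2 and 3 of the resting TurboID-PSD95 inputs and 144, 164 and 52.1 CPM in the resting Pan-TurboID inputs. In the DHPG inputs it read 4.03, 3.88 and 5.02 CPM, from 31, 25 and 31 counts. The knockdown inputs lay between, at 20.7 and 17.9 CPM at rest and 19.7 and 17.0 CPM after KCl, so that the 3 experiments did not overlap for this gene. Replicate 3 was the lowest of the resting cultures with either ligase.

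Cspg4, the NG2 proteoglycan, read 91.3, 84.8 and 23.7 CPM in the resting TurboID-PSD95 inputs and 110, 81.7 and 42.4 CPM in the resting Pan-TurboID inputs, again lowest in replicate 3. The DHPG inputs held 4.68, 6.68 and 6.15 CPM and the 4 knockdown inputs 32.7 to 35.6 CPM. The knockdown inputs lay within the range of the 12 KCl experiment inputs, 18.2 to 110 CPM, and the DHPG inputs below it.

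Of the transcription factors, Olig1 read 197, 229 and 106 CPM in the resting TurboID-PSD95 inputs, 168, 186 and 97.3 CPM in the resting Pan-TurboID inputs, 18.6, 18.9 and 16.2 CPM in the DHPG inputs and 80.6 to 106 CPM in the knockdown inputs. Olig2 read 55.0, 81.4 and 52.0 CPM, then 55.7, 61.7 and 61.1 CPM, then 6.75, 5.12 and 5.51 CPM, and 14.4 to 27.4 CPM in the same order of groups. Olig2 did not share the low replicate 3 of Pdgfra, Cspg4 and Olig1 in the resting Pan-TurboID inputs. Sox10 read 21.1, 29.0 and 8.32 CPM in the resting TurboID-PSD95 inputs, 16.1, 35.0 and 5.88 CPM in the resting Pan-TurboID inputs and 1.86 to 6.49 CPM in the knockdown inputs. Its DHPG inputs held 10, 8 and 7 counts, or 1.3, 1.24 and 1.13 CPM. For all 3 factors the DHPG inputs lay below every input of the other experiments.

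Ptprz1, the receptor phosphatase, was less variable, at 1552, 1720 and 1492 CPM in the resting TurboID-PSD95 inputs and 1848, 1598 and 1552 CPM in the resting Pan-TurboID inputs. It read 421, 438 and 438 CPM in the DHPG inputs and 1049 to 1157 CPM in the knockdown inputs. Cspg5, neuroglycan C, was the steadiest member, at 583, 630 and 635 CPM in the resting TurboID-PSD95 inputs, 634, 649 and 613 CPM in the resting Pan-TurboID inputs, 438, 417 and 425 CPM in the DHPG inputs and 355 to 533 CPM in the knockdown inputs. The highest of the 12 KCl experiment inputs exceeded the lowest 1.55-fold for Cspg5, 1.99-fold for Ptprz1, 3.56-fold for Pdgfra, 6.02-fold for Cspg4, 6.03-fold for Olig1, 6.68-fold for Olig2 and 16.4-fold for Sox10.

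**Figure D1:**
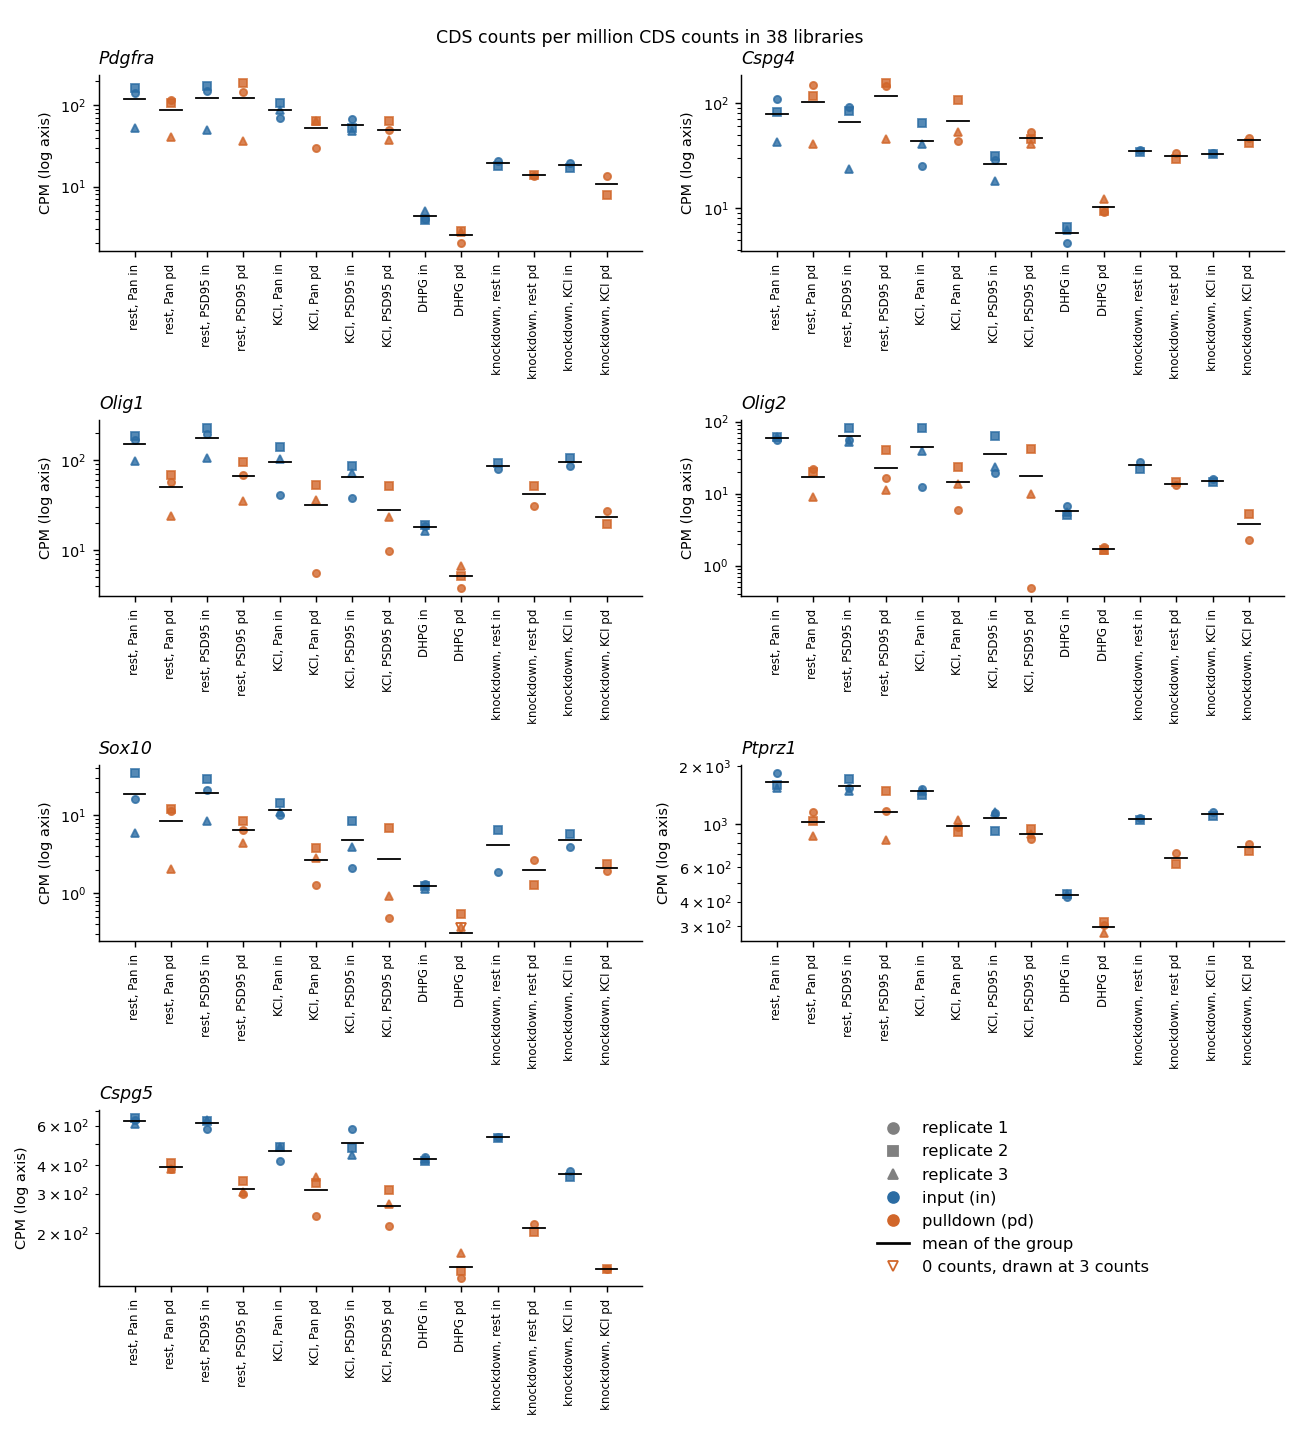
Level of each member in all 38 libraries, in CPM on a log axis, by group (blue, inputs; orange, pulldowns; circle, square and triangle, replicates 1, 2 and 3; line, group mean; open triangle, a library with 0 counts drawn at the value of 3 counts). Pdgfra read 49.4 to 174 CPM in the resting TurboID-PSD95 inputs and 3.88 to 5.02 CPM in the DHPG inputs, while Cspg5 lay between 355 and 649 CPM in every input.

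The DHPG inputs were compared with the resting TurboID-PSD95 inputs to ask how far the lineage genes differed between experiments. The agonist and the experiment cannot be told apart here, since the DHPG experiment has no resting cultures. All 7 members were lower in the DHPG inputs, where 28.2% of 13212 genes tested were called in either direction and 16% as lower (edgeR quasi-likelihood test, FDR under 0.05). The log2 difference ± SE was -4.79 ± 0.41 for Pdgfra (27.7-fold lower, FDR = 4.14e-06), -3.90 ± 0.56 for Sox10 (FDR = 6.71e-05), -3.45 ± 0.42 for Cspg4 (FDR = 5.68e-05), -3.35 ± 0.37 for Olig2 (FDR = 1.3e-05), -3.23 ± 0.29 for Olig1 (FDR = 3.18e-06), -1.80 ± 0.12 for Ptprz1 (FDR = 1.41e-08) and -0.46 ± 0.12 for Cspg5 (FDR = 0.00701). The median of the members was -3.35 against -0.06 for all genes tested. Of the 7, only Cspg5 lost its call when a replicate number was left out of both groups, with -0.40 (FDR = 0.172) without replicate 2 and -0.42 (FDR = 0.0651) without replicate 3. In bulk libraries such as these, fewer cells of a type and less ribosome-bound RNA per cell cannot be told apart.

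Markers of other non-neuronal cells moved with this difference. The summed level of the 10 astrocyte markers was 696 to 1324 CPM in the 6 resting inputs of the KCl experiment and 258 to 274 CPM in the DHPG inputs, and all 9 tested markers were lower. The 9 radial glia and dividing progenitor markers summed to 921 to 2672 CPM and 366 to 377 CPM, with 6 of 9 tested lower. The 9 pericyte and fibroblast markers, a group that shares Pdgfra and Cspg4 expression, summed to 278 to 491 CPM and 36.2 to 36.3 CPM, with 3 of 6 tested lower. The 5 endothelial markers summed to 12.55 to 49.4 CPM and 8.75 to 10.56 CPM, with 0 of 2 tested past the threshold, while the microglia markers overlapped, at 1.3 to 3.82 CPM and 2.43 to 4.04 CPM. The part of these cells in the values of Pdgfra, Cspg4, Ptprz1 and the other members was not tested. The 10 neuron markers summed to 8653 to 9658 CPM and 10510 to 10690 CPM, with 3 of 10 higher and 1 lower, so the labelled cell type was present in both experiments.

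In all, 5 members were also lower in the resting knockdown inputs than in the resting TurboID-PSD95 inputs, a comparison in which the knockdown and the experiment cannot be told apart and 16.3% of genes were called, 9.08% as lower. Pdgfra differed most (log2 difference -2.67 ± 0.41, FDR = 0.000841), then Sox10 (-2.18 ± 0.57, FDR = 0.0131), Olig2 (-1.32 ± 0.37, FDR = 0.0252), Olig1 (-1.0 ± 0.30, FDR = 0.0327) and Ptprz1 (-0.55 ± 0.13, FDR = 0.00644). Cspg4 (-0.92 ± 0.41, FDR = 0.144) and Cspg5 (-0.18 ± 0.13, FDR = 0.373) did not pass. Without replicate 3, which leaves both knockdown libraries in, 1324 of 13031 genes were called and 6 members passed, with Cspg4 added (-1.30, FDR = 0.00149). Leaving out replicate 1 or 2 left 1 knockdown library, whose spread is then assumed to be that of the other groups. All 7 differences stayed negative, with Pdgfra at -2.65 (FDR = 0.0383) and -2.24 (FDR = 0.151), and 988 of 13272 and 79 of 13451 genes were called. In a fit of the compared groups alone, where 1979 of 12721 genes were called, Olig2 and Ptprz1 passed.

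Markers of other cells differed in this comparison too. The 9 pericyte and fibroblast markers summed to 419 to 443 CPM in the resting TurboID-PSD95 inputs and 177 to 182 CPM in the resting knockdown inputs, with 3 of 6 tested lower, and their part in the Pdgfra value and in those of the other members was not tested. Of the astrocyte and the radial glia markers 2 of 9 tested were lower in each list, of 4 microglia markers tested 2 were higher, and of 10 neuron markers 7 were lower and 1 higher. The summed levels of the astrocyte, radial glia and neuron lists overlapped between the groups, while the microglia markers summed to 1.3 to 3.82 CPM at rest and 10.98 to 12.6 CPM in the knockdown inputs. The endothelial markers did not overlap either, at 18.3 to 49.4 CPM at rest and 65.3 to 65.7 CPM in the knockdown inputs, with 0 of 2 tested past the threshold. Their part in the member values was not tested.

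After KCl, 2 members were lower in the knockdown inputs than in the depolarized TurboID-PSD95 inputs, where 19.3% of genes were called, 10.6% as lower, Pdgfra (-1.62 ± 0.44, FDR = 0.0209) and Cspg5 (-0.46 ± 0.13, FDR = 0.0222). Without replicate 3, 2236 of 13031 genes were called and Olig2 passed as well (-1.49, FDR = 0.0344). With 1 knockdown library left, the values of Pdgfra and Cspg5 were -1.56 (FDR = 0.197) and -0.35 (FDR = 0.161) without replicate 1 and -1.59 (FDR = 0.241) and -0.47 (FDR = 0.274) without replicate 2, where 930 of 13272 and 50 of 13451 genes were called. The pericyte and fibroblast markers summed to 115 to 446 CPM in the depolarized TurboID-PSD95 inputs and 286 to 302 CPM in the depolarized knockdown inputs, with 1 of 6 tested higher. In the same order, radial glia markers summed to 633 to 1667 and 2639 to 2729 CPM (1 of 9 tested higher), astrocyte markers to 747 to 846 and 981 to 1003 CPM (4 of 9 higher and 1 lower), endothelial markers to 5.54 to 65.9 and 77.6 to 96.4 CPM (0 of 2) and microglia markers to 1.28 to 5.74 and 13.7 to 24.9 CPM (3 of 4 higher), and none of these 4 lists overlapped. Neuron markers overlapped, at 7410 to 8876 and 7289 to 7456 CPM, with 6 of 10 lower. The part of these cells in the member values was not tested.

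The stage of the lineage was read from genes outside the 7. Of 12 other progenitor genes, Vcan, encoding versican, and Tnr, encoding tenascin-R, had means of 27.4 ± 10.5 and 34.6 ± 5.50 CPM per kb (SD, n = 12) in the KCl experiment inputs, while Neu4 had at most 3 counts in any of them. The 10 genes of committed, premyelinating oligodendrocytes summed to 37.6 to 138 CPM in the resting KCl experiment inputs. Per kb, the means over the 12 KCl experiment inputs were 10.5 ± 5.10 CPM for Tns3, 4.23 ± 4.05 CPM for Gpr17, a receptor of newly committed cells, 3.52 ± 3.08 CPM for Bcas1 and 0.374 ± 0.280 CPM for Myrf, the factor that drives myelin genes. The 13 myelin and mature genes summed to 40.9 to 73.0 CPM in the resting KCl experiment inputs. Cnp and Mbp, the major basic protein of myelin, had counts in all 12 KCl experiment inputs, and Mog and Opalin, late surface proteins of myelinating cells, had 0 counts in all 19 inputs. Per kb the KCl experiment mean of Cnp, 30.3 CPM, was close to that of Pdgfra, and that of Mbp, 9.65 CPM, close to that of Sox10, so myelin genes were not below all members. The other progenitor genes summed to 691 to 825 CPM in the resting KCl experiment inputs and 527 to 538 CPM in the DHPG inputs. In the latter the committed genes summed to 16.15 to 20.41 CPM and the myelin and mature genes to 34.98 to 40.01 CPM. The part of cells outside the lineage in these lists was not tested.

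**Figure D2:**
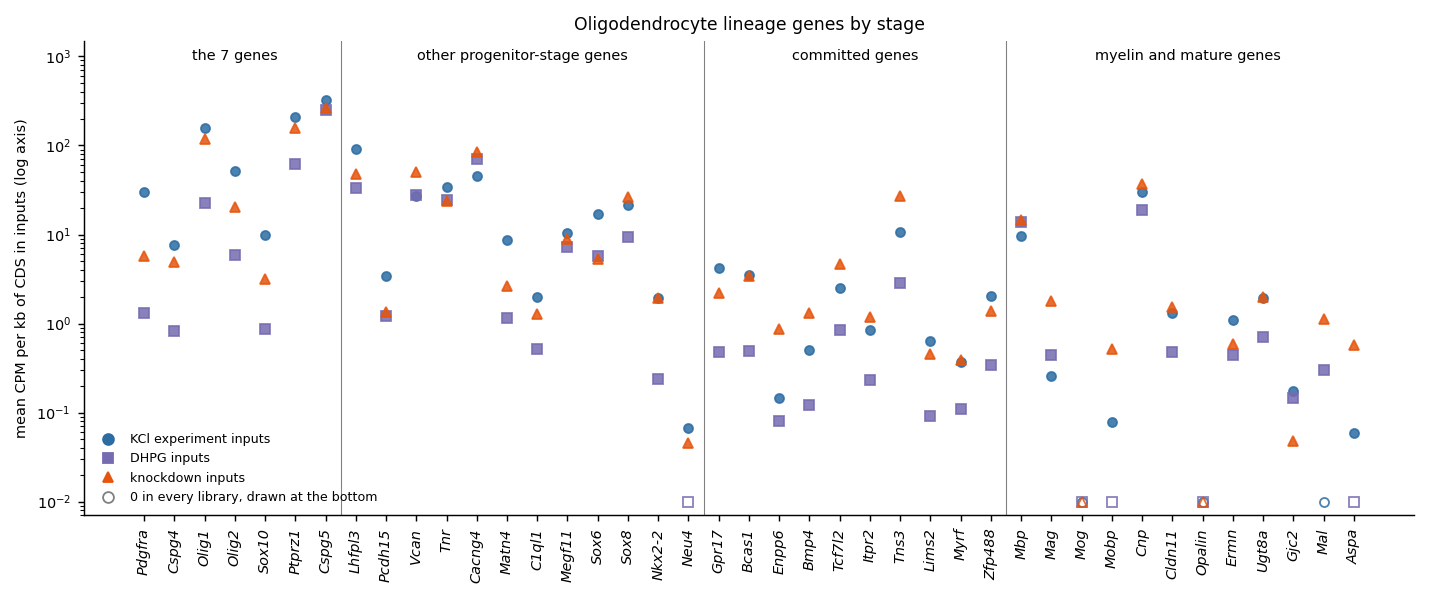
Mean level per kb of CDS (CPM per kb, log axis) of each gene in the inputs of the 3 experiments, grouped by stage of the lineage; an open symbol at the bottom marks a gene with 0 counts in every input of that experiment. The members reach 323.0 CPM per kb for Cspg5 in the KCl experiment, whereas Mog and Opalin sit at 0 in all 3.

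These other genes did not all follow the members. Of 13212 genes tested, 28.2% were called between the DHPG and the resting TurboID-PSD95 inputs, 16% as lower. The share was 16.3% (9.08% as lower) in the resting and 19.3% (10.6% as lower) in the depolarized knockdown comparison. Of the 11 other progenitor genes tested, 9 were lower in the DHPG inputs than in the resting TurboID-PSD95 inputs, among them Matn4, encoding a matrix adaptor protein (log2 difference -3.46 ± 0.42, FDR = 1.02e-05), and Sox6, a factor of immature progenitors (-1.67 ± 0.23, FDR = 3.62e-05), while Cacng4, a subunit that assists AMPA receptors, was higher (0.59 ± 0.16, FDR = 0.00843). Of 9 committed genes tested 5 were lower and 0 higher, with Gpr17 at -3.91 ± 0.84 (FDR = 0.00191), and of 5 myelin genes tested only Cnp was lower (-0.92 ± 0.19, FDR = 0.00148). In the resting knockdown inputs 5 other progenitor genes were lower and 2 higher. Between the depolarized knockdown and the depolarized TurboID-PSD95 inputs 2 of 9 committed genes tested were higher in the former, Tns3 (2.01 ± 0.46, FDR = 0.0119) and Tcf7l2 (1.88 ± 0.46, FDR = 0.00842), and 0 were lower, while of 11 other progenitor genes tested 3 were higher and 3 lower. The radial glia and astrocyte markers that differed in the same comparison are given above, and their part in these values was not tested. Microglial markers, which summed to 1.28 to 5.74 CPM in the KCl experiment inputs, summed to 10.98 to 24.9 CPM in the knockdown inputs.

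Ligands and partners of the member proteins were read in the same inputs. Pdgfa, which encodes the ligand of PDGFRA, had a median of 15.2 CPM in the KCl experiment inputs and 20.2 CPM in the DHPG inputs. Of the secreted ligands of PTPRZ1, Ptn, encoding pleiotrophin, had medians of 167.5, 165.0 and 253.9 CPM in the KCl, DHPG and knockdown inputs, and Mdk, encoding midkine, 28.4, 3.88 and 38.1 CPM. Mdk was among 7 of the 10 tested genes of this list that were lower in the DHPG inputs than in the resting TurboID-PSD95 inputs (-3.01 ± 0.31, FDR = 1.76e-06). Of all 13212 genes tested, 16% were lower in that comparison. The neuronal binding partners of PTPRZ1, Cntn1 and Nrcam, were abundant throughout, with medians of 1353 and 1335 CPM in the KCl experiment inputs. Of 6 other proteoglycan and link protein genes, Bcan, encoding brevican, was lower in the DHPG inputs (-3.15 ± 0.19, FDR = 7.87e-09), as were Ncan and Acan, and Hapln1, encoding a link protein, was higher (1.65 ± 0.35, FDR = 0.00418).

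KCl depolarization was compared with rest in the inputs of both ligases, to see whether the lineage genes moved in the whole culture. All 7 members had a negative log2 difference and none passed in the fit of group means, whereas 15.3% of 13003 genes did, 9.02% as lower. Among all genes 1995 passed with edgeR and 2523 (19.4%) with DESeq2, which called 2 members, Sox10 (-1.29, FDR = 0.0400) and Cspg5 (-0.31, FDR = 0.0279). The differences were -1.31 ± 0.49 for Sox10 (FDR = 0.0696), -1.07 ± 0.38 for Cspg4 (FDR = 0.0639), -1.03 ± 0.44 for Olig1 (FDR = 0.124), -0.75 ± 0.38 for Pdgfra (FDR = 0.190), -0.58 ± 0.53 for Olig2 (FDR = 0.511), -0.34 ± 0.12 for Cspg5 (FDR = 0.0560) and -0.33 ± 0.13 for Ptprz1 (FDR = 0.0964), with a median of -0.75 against -0.01 for all genes. With a term for the replicate number in the fit (the replicate block), Cspg4 (-0.95, FDR = 0.00832), Sox10 (-1.11, FDR = 0.0260), Cspg5 (-0.34, FDR = 0.0376) and Olig1 (-1.06, FDR = 0.0391) passed. The number of all genes then called is given with the processing results. Cspg4, Ptprz1 and Cspg5 were lower after KCl in 6 of 6 same-numbered input pairs, and how many of all genes were was not counted.

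The difference was uneven across the libraries. Pdgfra read 70.7, 108 and 87.1 CPM in the depolarized Pan-TurboID inputs and 69.1, 53.4 and 48.8 CPM in the depolarized TurboID-PSD95 inputs, against the resting values above. Olig1 read 40.8, 141 and 103 CPM and 37.9, 85.3 and 71.3 CPM in the same groups, lowest in replicate 1, whose depolarized inputs had 12.5% and 24.8% of their counts in the CDS. Only Cspg5 had ranges that did not overlap, with 583 to 649 CPM in the 6 resting and 418 to 578 CPM in the 6 depolarized inputs. How many of all genes do so was not counted. Without replicate 1, where 2098 of 12951 genes passed, all 7 differences stayed negative and only Cspg5 passed (-0.45, FDR = 0.0208). Without replicate 3, where 515 of 13197 genes passed, Pdgfra (-1.04, FDR = 0.0180) and Cspg4 (-1.25, FDR = 0.0146) did, and without replicate 2, where 887 of 12800 genes passed, 0 members did.

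**Figure D3:**
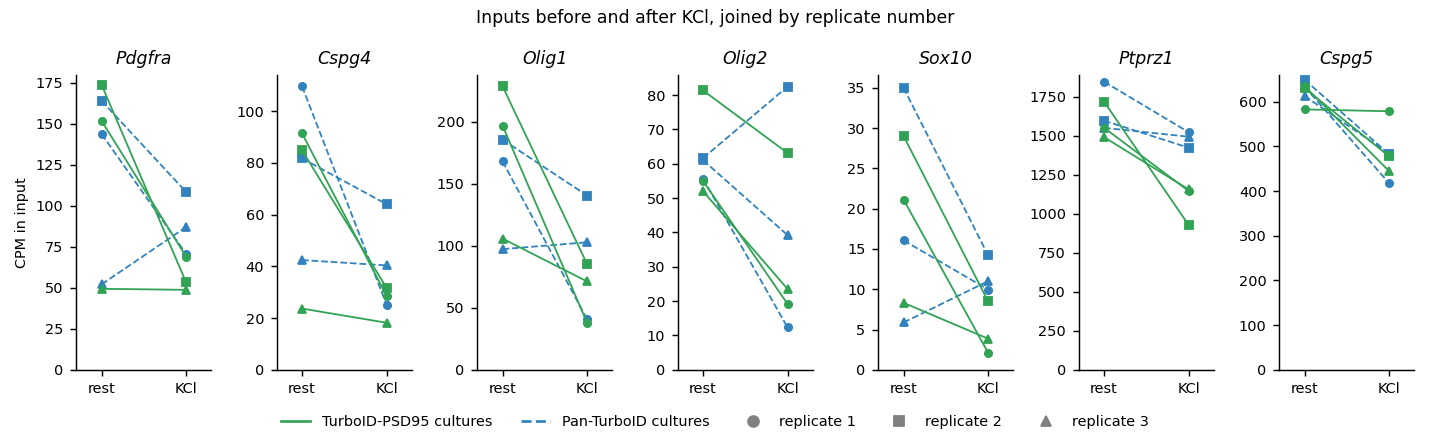
Level of each member in the inputs of the KCl experiment at rest and after KCl, in CPM on an axis that starts at 0 (circle, square and triangle, replicates 1, 2 and 3); each line joins libraries that share a replicate number (green solid, TurboID-PSD95; blue dashed, Pan-TurboID). Of the 7 members only Cspg5 has ranges that do not overlap, 583 to 649 CPM at rest and 418 to 578 CPM after KCl.

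The genes around the members were read in the same comparison, in which 15.3% of 13003 genes passed. Among 11 other progenitor genes tested only C1ql1 was lower (-2.03 ± 0.70, FDR = 0.0468), and of the committed and myelin genes 0 of 7 and 0 of 4 tested passed. Of 11 ligands and partners, Pdgfc, encoding another PDGFRA ligand (-2.86 ± 0.57, FDR = 0.000925), and Cntn1 (-0.56 ± 0.13, FDR = 0.00302) were lower and Pdgfb was higher (0.70 ± 0.23, FDR = 0.0405). Of 6 proteoglycan genes, Acan (-1.24 ± 0.32, FDR = 0.0105) and Sdc3 (-0.53 ± 0.17, FDR = 0.0355) were lower. Astrocyte and radial glia markers each had 0 of 9 tested past the threshold, and their summed levels overlapped between rest and KCl, at 747 to 1400 CPM and 633 to 1954 CPM in the 6 depolarized inputs. The pericyte and fibroblast markers had 0 of 6 tested past the threshold, and the log2 difference was below 0 for 4 of the 6. Their summed level was 278 to 491 CPM in the resting inputs (median 431) and 115 to 565 CPM in the depolarized inputs (median 230.0), with Kcnj8 at 0 counts in the latter. In the TurboID-PSD95 cultures alone it was 419 to 443 CPM at rest and 115 to 446 CPM after KCl (median 152). The part of these cells in the values of Pdgfra and Cspg4 was not tested.

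In the knockdown cultures only Cspg5 was lower in the depolarized than in the resting knockdown inputs, at 377 and 355 CPM against 533 and 532 CPM (log2 difference -0.52 ± 0.09, FDR = 0.000184), where 19.3% of 12223 genes passed, 10.3% as lower. Pdgfra (-0.05 ± 0.32, 95% interval -0.67 to 0.57), Cspg4 (-0.06 ± 0.22, -0.49 to 0.37), Olig1 (0.15 ± 0.20, -0.25 to 0.54) and Ptprz1 (0.10 ± 0.08, -0.06 to 0.26) did not pass, nor did Olig2 (-0.69 ± 0.33, -1.33 to -0.05) or Sox10 (0.17 ± 0.74, -1.29 to 1.62). In a fit of these 2 groups alone Olig2 passed too (-0.70, FDR = 0.0348). Markers of other cells moved in the same comparison. From the resting to the depolarized knockdown inputs neuron markers went from 9155 to 9368 CPM to 7289 to 7456 CPM (3 of 10 lower), radial glia markers from at most 1712 CPM to 2639 to 2729 CPM (4 of 8 tested higher), astrocyte markers from 759 to 763 CPM to 981 to 1003 CPM (4 of 9 higher) and pericyte and fibroblast markers from 177 to 182 CPM to 286 to 302 CPM (1 of 5 higher). Endothelial (65.3 to 65.7 against 77.6 to 96.4 CPM) and microglia markers (10.98 to 12.6 against 13.7 to 24.9 CPM) did not overlap either, with 0 of 1 and 0 of 3 tested past the threshold. The part of these cells in the Cspg5 value, a gene that neurons also express, was not tested. The difference between the responses of the knockdown and the KCl experiment was not tested.

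In the pulldowns of the KCl experiment no member passed between depolarized and resting cultures with either ligase in the fit of group means. With the replicate block Cspg4 passed for TurboID-PSD95 (-1.15, FDR = 0.0375), and the number of genes then called is given with the processing results. For TurboID-PSD95, 855 of 13003 genes (6.58%) passed with edgeR and 1371 with DESeq2, and the members ranged from -1.33 ± 0.54 for Cspg4 (FDR = 0.149) to -0.23 ± 0.17 for Cspg5. Without replicate 3, where 92 of 13197 genes passed, Pdgfra did (-1.56, FDR = 0.0388). For Pan-TurboID 5.03% of genes passed and the members ranged from -1.48 ± 0.73 for Sox10 to -0.0016 ± 0.19 for Ptprz1, with 654 genes past the threshold in edgeR and 1043 in DESeq2. In the knockdown pulldowns, where 22.2% of genes passed, 12% as lower, 3 members were lower after KCl, Olig2 (2.29 and 5.17 CPM against 13.03 and 14.5 CPM, log2 difference -1.91 ± 0.45, FDR = 0.00266), Cspg5 (139 and 138 CPM against 219 and 203 CPM, -0.60 ± 0.11, FDR = 0.000117) and Olig1 (27.5 and 19.7 CPM against 31.1 and 52.1 CPM, -0.75 ± 0.26, FDR = 0.0352). The Olig2 values after KCl rest on 6 and 11 counts. In these pulldowns radial glia markers summed to 1244 to 1273 CPM at rest and 2089 to 2197 CPM after KCl (4 of 8 tested higher), astrocyte markers to 592 to 749 and 827 to 1079 CPM (4 of 9 higher and 1 lower) and neuron markers to 7063 to 7270 and 5543 to 5546 CPM (2 of 10 higher and 1 lower). Pericyte and fibroblast markers summed to 65.8 to 80.7 and 84.6 to 87.4 CPM and endothelial markers to 34.0 to 39.7 and 48.5 to 52.2 CPM, with 0 of 5 and 0 of 1 tested past the threshold, and microglia markers overlapped. Their part in the member values was not tested. The Olig1 difference was -1.40 without replicate 1 and -0.17 without replicate 2, with no test, and in a fit of the 2 groups alone it did not pass (-0.78, FDR = 0.103).

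Each pulldown was then set against its own input, which is the measure of labelled ribosomes. Across all 19 pairs Olig1, Olig2 and Cspg5 were lower in the pulldown in 19, Sox10 and Ptprz1 in 18 and Pdgfra in 17, while Cspg4 was higher in 16. These counts go by sign alone. The Sox10 pulldown of DHPG replicate 1 held 0 counts and was set at 3, and that of depolarized TurboID-PSD95 replicate 1 held 1. The 95% counting interval of the fold included 1 in some pairs. It was 0.00483 to 2.04 for the latter and 0.886 to 1.03 for Pdgfra in resting TurboID-PSD95 replicate 1. The median log2 ratio of CPM was -1.62 for Olig2, -1.61 for Sox10, -1.55 for Olig1, -0.97 for Cspg5, -0.60 for Ptprz1, -0.45 for Pdgfra and 0.51 for Cspg4. The medians of the 2 longest coding sequences of the set, Cspg4 and Ptprz1, lay on opposite sides of 0. The number of all genes lower or higher in as many pairs was not counted. Among all genes, the median difference was below 0 for short coding sequences and above 0 for long ones in every culture, as given below. The class medians are fitted differences, whereas the member medians are ratios of CPM, so only their signs are set side by side. Olig1, Olig2 and Cspg4 had the sign of their length class, and Ptprz1 and Pdgfra the other. Cspg5 and Sox10 fall between these classes. Ptprz1 is placed by its longest transcript, and shorter coding transcripts are described below. The part of CDS length in these ratios was not tested beyond the fits with the length trend removed.

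The summed markers of some other cells were also lower in the pulldowns. Pericyte and fibroblast markers summed to 419 to 443 CPM in the resting TurboID-PSD95 inputs and 134 to 208 CPM in their pulldowns, to 36.2 to 36.3 and 21.2 to 23.5 CPM with DHPG, to 177 to 182 and 65.8 to 80.7 CPM in the resting knockdown cultures and to 286 to 302 and 84.6 to 87.4 CPM in the depolarized ones. In the other 3 cultures their ranges overlapped. Of those tested, 1 of 2 was lower with DHPG, 3 of 5 in the resting and 2 of 5 in the depolarized knockdown cultures, and 0 of 6 in each of the 4 cultures of the KCl experiment. Of all genes tested, 79.7% were called with DHPG, 39.3% as lower. The share was 45.5% (23.4% as lower) in the resting and 48.8% (24.8% as lower) in the depolarized knockdown cultures. In the cultures of the KCl experiment it was 8.77% to 25.1%, and the marker counts here stand beside these shares. Radial glia markers summed to 366 to 377 CPM in the DHPG inputs and 252 to 260 CPM in the pulldowns (2 of 8 tested higher and 5 lower), and to 2639 to 2729 and 2089 to 2197 CPM in the depolarized knockdown cultures (3 of 8 higher and 3 lower). In the resting knockdown cultures the pulldowns read 1244 to 1273 CPM, below both inputs (3 of 8 higher and 3 lower), and in the KCl experiment the ranges overlapped, with 0 to 2 of 9 lower. Endothelial markers summed to 65.3 to 65.7 and 34.0 to 39.7 CPM in the resting and to 77.6 to 96.4 and 48.5 to 52.2 CPM in the depolarized knockdown cultures, with the 1 tested lower in each. Astrocyte markers were not lower in sum in the KCl and DHPG experiments, with 696 to 1324 CPM in the resting TurboID-PSD95 inputs and 710 to 1592 CPM in their pulldowns, and 258 to 274 and 271 to 289 CPM with DHPG (3 of 8 higher and 1 lower). In the depolarized TurboID-PSD95 cultures they were higher in the pulldowns without overlap, at 747 to 846 and 934 to 1015 CPM. In the resting knockdown cultures they read 759 to 763 and 592 to 749 CPM (1 of 9 higher and 2 lower). Neuron markers summed to 8653 to 9658 and 7948 to 8644 CPM in the resting TurboID-PSD95 cultures (1 of 10 higher and 2 lower), to 10510 to 10690 and 8966 to 9036 CPM with DHPG (4 higher and 4 lower) and to 9155 to 9368 and 7063 to 7270 CPM in the resting knockdown cultures (2 higher and 5 lower). Their sums were also lower in the pulldowns, without overlap, in the depolarized knockdown cultures. The part of these cells in the member ratios was not tested.

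In the resting TurboID-PSD95 cultures, Olig1 read 68.7, 95.5 and 35.2 CPM in the pulldowns against 197, 229 and 106 CPM in the inputs, and Olig2 16.4, 40.9 and 11.2 CPM against 55.0, 81.4 and 52.0 CPM. Cspg4 went the other way, at 146, 156 and 45.9 CPM in the pulldowns against 91.3, 84.8 and 23.7 CPM in the inputs. Cspg5 read 298, 339 and 304 CPM against 583, 630 and 635 CPM. Olig1, Olig2 and Cspg5 did not overlap between pulldown and input, whereas Cspg4 did, since replicate 3 was low in both fractions. The number of all genes without such overlap was not counted.

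**Figure D4:**
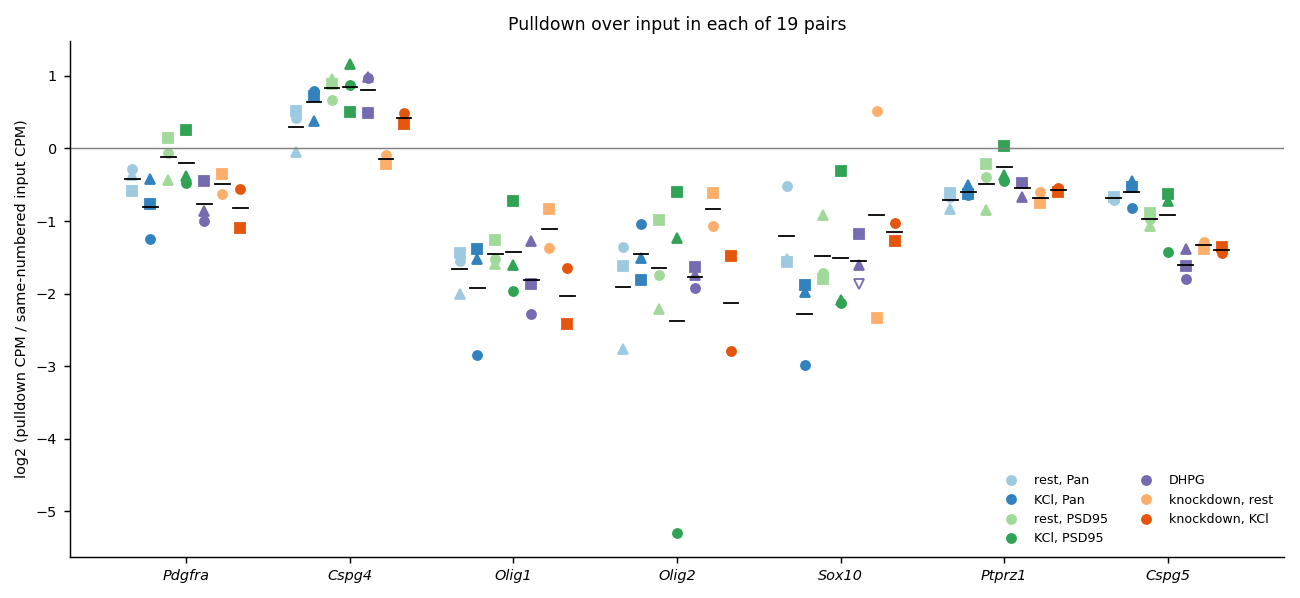
Log2 ratio of pulldown over input CPM for each member in the 19 pairs (colours, the 7 cultures; circle, square and triangle, replicates 1, 2 and 3; line, mean of a culture; open triangle, a pulldown with 0 counts set at 3 counts). Olig1, Olig2 and Cspg5 lie below 0 in all 19 pairs, whereas Cspg4 lies above 0 in 16.

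At rest with TurboID-PSD95, where 25.1% of 13003 genes were called, 13.5% as lower, Cspg5 was lower in the pulldown (log2 difference -0.94 ± 0.17, FDR = 0.00300), and Olig1 (-1.36 ± 0.62, FDR = 0.116), Olig2 (-1.38 ± 0.77, FDR = 0.197), Sox10 (-1.54 ± 0.70, FDR = 0.102), Ptprz1 (-0.41 ± 0.19, FDR = 0.106), Cspg4 (0.85 ± 0.53, FDR = 0.247) and Pdgfra (0.05 ± 0.52, FDR = 0.957) did not pass. With the replicate block, 31.3% of genes were called and Olig1 (-1.40 ± 0.48, FDR = 0.0362), Olig2 (-1.56 ± 0.53, FDR = 0.0307) and Sox10 (-1.50 ± 0.50, FDR = 0.0244) passed as well. Cspg4 (0.85 ± 0.34, FDR = 0.0563), Ptprz1 (-0.42 ± 0.18, FDR = 0.0745) and Pdgfra (0.008 ± 0.39, FDR = 0.991) did not pass with the block. The 3 pair ratios of Cspg4 were all above 0, with a mean of 0.84 and an SD of 0.15. The fit of group means does not pair a pulldown with its own input, and no paired test was run. After KCl with TurboID-PSD95, where 12.6% of genes were called, 4.38% as lower, Cspg5 was lower (-0.88 ± 0.17, FDR = 0.00576) and the other members did not pass, Ptprz1 among them (-0.23 ± 0.19, FDR = 0.424). With the block Cspg5 read -0.89 (FDR = 0.00129) and the other members did not pass either. The share of all genes called with the block after KCl is not given here, so this call has no background beside it. The Cspg5 call was lost at rest without replicate 3 (-0.89, FDR = 0.143), where edgeR called 0 of 13197 genes and 2813 had an unadjusted p under 0.05. After KCl it was lost without replicate 1 (-0.61, FDR = 0.0582), where 594 of 12951 genes were called, and without replicate 3 (-0.99, FDR = 0.193), where 3 of 13197 were.

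With the unlocalised Pan-TurboID the fitted differences had the same sign as with TurboID-PSD95 for all members but Pdgfra at rest and for all 7 after KCl. At rest 9.54% of genes were called, 5.02% as lower, and Ptprz1 (-0.65 ± 0.19, FDR = 0.0349) and Cspg5 (-0.64 ± 0.17, FDR = 0.0299) were lower in the pulldown. With the block, where 18.6% were called, Olig1 (-1.59, FDR = 0.0312) and Olig2 (-1.80, FDR = 0.0228) passed too. Leaving out replicate 1, 2 or 3 took Ptprz1 to FDR = 0.0728, 0.157 and 0.3 in edgeR, and leaving out replicate 2 or 3 took Cspg5 to 0.180 and 0.293. Without replicate 1 edgeR called 1221 of 12951 genes, and without replicate 2 or 3 it called 0, with 2458 of 12800 and 1932 of 13197 genes at an unadjusted p under 0.05. After KCl 8.77% of genes, 3.62% as lower, and 0 members passed with edgeR, while 3813 genes had an unadjusted p under 0.05 and DESeq2 called 3 members, Sox10, Ptprz1 and Cspg5, and 17.3% of genes. With the block, where 18.7% were called, Olig1 (-1.58, FDR = 0.0362), Sox10 (-2.21, FDR = 0.00939), Ptprz1 (-0.54, FDR = 0.0366) and Cspg5 (-0.54, FDR = 0.0240) passed. Without replicate 1 and with no block, where 591 of 12951 genes were called, they read -1.37 (FDR = 0.223), -1.82 (FDR = 0.294), -0.51 (FDR = 0.170) and -0.43 (FDR = 0.150).

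Whether the dendritic ligase recovered a member more than the unlocalised one was tested directly, over both conditions. Only 1 of 13003 genes (0.00769%) passed with edgeR, not a member, while 169 had an unadjusted p under 0.05 and DESeq2 called 2. The difference in log2 ratio was -0.32 ± 0.17 for Cspg5 (95% interval -0.66 to 0.01) and 0.28 ± 0.19 for Ptprz1 (-0.09 to 0.65). For the others it lay between 0.30 and 0.54, with intervals as wide as -0.96 to 2.03 for Olig2. For the shift of the TurboID-PSD95 ratio with KCl, 0 of 13003 genes passed with edgeR, 236 had an unadjusted p under 0.05 and DESeq2 called 1. The members lay between -0.18 ± 0.75 for Pdgfra and 0.97 ± 1.02 for Sox10.

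In the DHPG cultures 79.7% of 12257 genes passed, 39.3% as lower, between pulldown and input. The common dispersion, edgeR's measure of spread between replicates, was 0.00522 in this fit, 0.0863 in the KCl and 0.0174 in the knockdown fit. Shares of genes called and FDRs therefore do not compare sizes of effect between the experiments. Olig1 read 3.81, 5.21 and 6.70 CPM in the pulldowns against 18.6, 18.9 and 16.2 CPM in the inputs (log2 difference -1.53 ± 0.18, FDR = 2.91e-07). Olig2 read 1.78, 1.65 and 1.64 CPM against 6.75, 5.12 and 5.51 CPM (-1.58 ± 0.26, FDR = 1.98e-05), and Cspg5 126, 135 and 163 CPM against 438, 417 and 425 CPM (-1.38 ± 0.08, FDR = 1.31e-11). None of these 3 overlapped between the fractions, and how many of all genes did not was not counted.

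Ptprz1 in the DHPG cultures, at 302, 314 and 274 CPM against 421, 438 and 438 CPM, was lower in the pulldown (-0.33 ± 0.06, FDR = 9.98e-05). Cspg4 was higher, at 9.16, 9.33 and 12.1 CPM against 4.68, 6.68 and 6.15 CPM (1.04 ± 0.19, FDR = 6.86e-05). Pdgfra did not pass (2.02, 2.84 and 2.75 CPM against 4.03, 3.88 and 5.02 CPM, -0.53 ± 0.26, FDR = 0.0698), and Sox10, with 0, 6 and 5 counts in the pulldowns, fell below the filter and was not tested. The fitted differences are on edgeR's TMM scale, which set the median of all genes at 0.04 in this comparison, against -0.16 when scaled to CDS totals alone. On CDS totals Pdgfra passed (-0.73, FDR = 0.0153) and the 5 members above kept their direction.

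In the knockdown cultures at rest, where 45.5% of 12223 genes passed, 23.4% as lower, Olig1 (31.1 and 52.1 CPM against 80.6 and 93.3 CPM, -1.0 ± 0.21, FDR = 0.000446), Ptprz1 (711 and 623 CPM against 1081 and 1049 CPM, -0.56 ± 0.08, FDR = 4.64e-06) and Cspg5 (-1.22 ± 0.10, FDR = 1.75e-10) were lower in the pulldown. After KCl 48.8% of genes passed, 24.8% as lower, and Olig2 joined them (2.29 and 5.17 CPM against 15.8 and 14.4 CPM, -1.96 ± 0.45, FDR = 0.000723), with Olig1 at -1.90 ± 0.24 (FDR = 4.03e-07), Ptprz1 at -0.47 ± 0.08 (FDR = 4.68e-05) and Cspg5 at -1.30 ± 0.10 (FDR = 1.43e-10). Cspg4 was near 0 at rest (-0.02 ± 0.22, 95% interval -0.45 to 0.41) and at 0.52 ± 0.23 after KCl (FDR = 0.0648). The 2 replicates of each knockdown group are few, and a fit that leaves 1 out has no spread left to test with.

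CDS length moved with these ratios in every comparison. Across genes, which are not independent replicates, Spearman's rho between the log2 pulldown over input difference and CDS length was 0.515 to 0.619. Genes with a CDS under 1000 nt, as Olig1 and Olig2, had a median log2 difference of -1.07 to -0.547, and genes of 3000 to 10000 nt, as Pdgfra, Ptprz1 and Cspg4, one of 0.344 to 0.911. When the trend was removed in the DHPG cultures, 67.4% of genes passed, Cspg4 no longer passed (0.05 ± 0.20, FDR = 0.839), Ptprz1 went to -1.33 ± 0.06 (FDR = 1.58e-12), Pdgfra passed (-1.19 ± 0.26, FDR = 0.000536), and Olig1 (-0.93 ± 0.17, FDR = 0.000121), Olig2 (-1.27 ± 0.26, FDR = 0.000279) and Cspg5 (-1.62 ± 0.08, FDR = 6.52e-12) still did. In the resting TurboID-PSD95 cultures Ptprz1 then passed (-1.0 ± 0.20, FDR = 0.00311) beside Cspg5 (-1.07 ± 0.17, FDR = 0.00107), where 14.1% of genes did. After KCl Ptprz1 passed with TurboID-PSD95 (-0.80 ± 0.20, FDR = 0.0223) and Pan-TurboID (-1.08 ± 0.20, FDR = 0.0200), again beside Cspg5 (-1.0 ± 0.17, FDR = 0.00453, and -0.66 ± 0.17, FDR = 0.0396). The numbers of genes called after KCl are given with the processing results. In the resting knockdown cultures, where 32.9% of genes then passed, Cspg4 passed as lower (-0.91 ± 0.22, FDR = 0.00211), as did Pdgfra (-0.86 ± 0.32, FDR = 0.0431). In the depolarized knockdown cultures, where 4290 of 12223 genes then passed, Pdgfra passed as well (-1.23 ± 0.36, FDR = 0.00919, against -0.67 and FDR = 0.132 with the trend kept), and Cspg4 did not (-0.41 ± 0.23, FDR = 0.182). With TurboID-PSD95 Cspg4 was then at 0.26 ± 0.59 at rest and 0.25 ± 0.62 after KCl. With Pan-TurboID it was at -0.05 ± 0.59 and 0.13 ± 0.59, and it did not pass in these cultures. The part of CDS length in the Cspg4 ratio was not tested beyond this.

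Along the CDS of Ptprz1 the fractions differed in a way that the gene total hides. Its longest coding segment, 3547 nt or 51.1% of the CDS, held 76.2% of the input CDS counts. This segment, which encodes much of the extracellular region that carries chondroitin sulfate, is followed by 18 segments, which encode the membrane and phosphatase regions, and preceded by 11. The longest segment was lower in the pulldown in 19 of 19 pairs, with a median log2 ratio of -0.85 (-1.15 to -0.09), whereas the segments after it were higher in 19 of 19, with a median of 0.63 (0.36 to 1.19). The segments before it were lower in 18, with a median of -0.41.

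The annotation holds 2 shorter coding transcripts of Ptprz1 that differ by this segment. The shorter-ended form has a CDS of 4839 nt in 12 segments and ends just past the longest segment, the structure of the secreted form known as phosphacan, and the other has a CDS of 4392 nt in 30 segments and lacks most of it. The density of counts on the longest segment was 3.35 to 13.1 times that on the segments after it in the inputs, with a median of 6.98, and 1.11 to 4.82 times in the pulldowns, with a median of 2.39. Among the inputs it was 3.35 to 3.53 in the DHPG experiment, 3.36 to 4.02 in the knockdown experiment and 6.14 to 13.1 in the KCl experiment, which overlapped neither of the others. Reads of the 3 transcripts on shared segments cannot be told apart.

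Over 11074 genes, the median log2 ratio of the first over the second part of the CDS was 0.531 in the inputs and -0.405 in the pulldowns. Ptprz1 read 2.49 and 1.10 (percentiles 97.2 and 94.3), and its difference between the fractions, 1.39, was at percentile 74.7. Pdgfra read 0.97 and -0.42, Cspg5 1.22 and 1.10, Cspg4 0.44 and 0.19, and Sox10 -0.09 and 0.49, with Sox10 at percentile 1.39 for the difference between the fractions. Olig1 and Olig2 have their whole CDS in 1 segment and were not split.

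**Figure D5:**
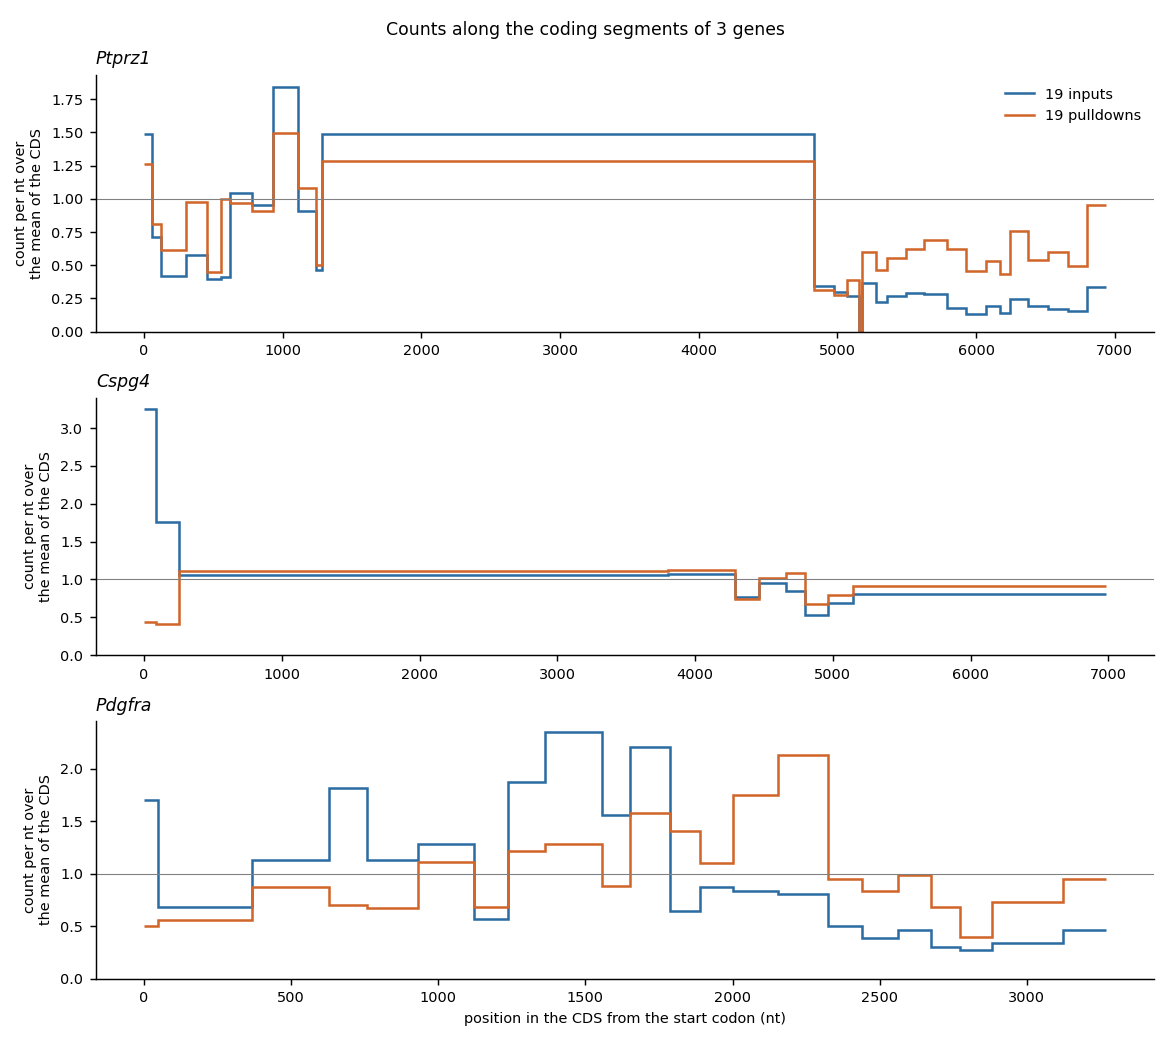
Count per nucleotide of each coding segment relative to the mean of the CDS, along the CDS of Ptprz1, Cspg4 and Pdgfra, summed over the 19 inputs (blue) and the 19 pulldowns (orange). On Ptprz1 the longest segment lies above the segments after it in both fractions, by a median of 6.98 times in the inputs and 2.39 times in the pulldowns.

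Across the 19 inputs, which share libraries, depth and experiment, so that the values are descriptions, the 6 members other than Cspg5 moved together, with Pearson's r of 0.796 to 0.937 between them on the log2 scale of CPM plus 1. Cspg5 had r of 0.537 to 0.708 with the others. Of 10721 genes with a mean of at least 5 CPM, those most like Pdgfra were Luzp2 (r = 0.938), Matn4 (0.922) and Fubp3 (0.918), and those most like Cspg4 were Bcan (0.939), Olig1 (0.937) and Adamts1 (0.933). Olig1 was followed most closely by Qk (0.965), Bcan (0.952) and Nes (0.947), Olig2 by Hes5 (0.936), Dmrta2 (0.913) and Ctsa (0.910), and Sox10 by Matn4 (0.923), Pdgfra (0.869) and Olig1 (0.859). The nearest to Ptprz1 were Bcan (0.958), Pdia4 (0.936) and Col1a1 (0.934), and to Cspg5 H6pd (0.929), Adipor1 (0.929) and Podxl2 (0.920).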

How the data were processed

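Ribosome footprints of 38 libraries were analysed, in 10 groups of 3 and 4 groups of 2. Per the methods and the file headers, the authors removed ribosomal and duplicate reads, aligned to the mouse genome (mm10 in the submitters' processing notes), and counted reads of at least 25 nt per transcript with plastid by their 5′ end, with no offset, which moves initiating ribosomes into the 5′ UTR. The deposited counts are whole numbers per 5′ UTR, CDS and 3′ UTR, not normalized, and the deposited RPKM values equal those counts rescaled in 100% of cases (relative tolerance 1e-06), so they were not tested. Of 67238 coding transcripts 99.3% were named through the annotation and 488 were left out, and the longest stood for each of 22443 genes. CDS totals were 2047169 to 14636018 per library, and intervals on counts cover counting error only.

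The CDS counts were tested with edgeR 4.0.16 (TMM, quasi-likelihood, Benjamini-Hochberg over all genes tested, threshold 0.05) in R 4.3.3 with limma 3.58.1, in 4 fits: the KCl experiment (24 libraries, 13003 genes), DHPG (6, 12257), knockdown (8, 12223) and inputs across experiments (13, 13212). Groups came from the labels. The fit of inputs across experiments uses 1 estimate of spread for each gene over experiments whose replicates differ in spread. Nothing states separate animals for the replicates, so p-values measure the spread between these samples. The script was tested on simulated data. Alternatives were DESeq2 1.42.0, other size factors, no filter, the likelihood ratio test, a replicate block, other transcripts, removal of the CDS length trend, the compared groups alone, and each replicate left out. Named genes were all members and, of each other list, up to 3 with the smallest p past the threshold in each direction, the 3 with the highest level per kb, and for each member the 3 genes of most similar pattern. Further genes whose levels are given to mark a stage of the lineage or a ligand (such as Gpr17, Bcas1, Myrf, Mog, Opalin, Neu4, Pdgfa, Mdk) were chosen after their values were seen. A gene of the myelin list is not reported here. The members and lists were chosen with earlier results of these data known.

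In the KCl experiment same-numbered libraries were processed in a folder of their own holding all 8 groups, and each input and pulldown come from the same monosome fraction. The correlation of deviations from the group means was 0.153 to 0.501 in 12 of 12 input and pulldown pairs. Over all 36 same-numbered pairs within a condition, which include cultures with the other ligase, it was 0.0951 to 0.524. The replicate block given beside those ratios is 1 term for each number, shared by rest, KCl and both ligases. It is therefore not a test of each pulldown against its own input. The correlation was -0.0924 to 0.040 in the DHPG pairs and 0.000234 to 0.0119 in the knockdown pairs, whose fractions share a lysate.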

Additional observations from a re-analysis of the deposited data

Results flagged for a closer look

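The log2 pulldown over input ratio of Cspg4 lay on both sides of 0. It was above 0 in every pair of the resting TurboID-PSD95 cultures (mean 0.84), the depolarized Pan-TurboID cultures (0.64), the depolarized TurboID-PSD95 cultures (0.85), the DHPG cultures (0.81) and the depolarized knockdown cultures (0.41), and below 0 in both pairs of the resting knockdown cultures (-0.15). The fitted difference of the latter had an interval that includes 0 (-0.02 ± 0.22, 95% interval -0.45 to 0.41), and in the resting Pan-TurboID cultures the ratio was above 0 in 2 of 3 pairs. Genes with a CDS of 3000 to 10000 nt, as Cspg4, had a median fitted difference of 0.344 to 0.911 across the cultures. The difference between these cultures was not tested.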

How the results depend on the processing

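Of the values recomputed for 118 tested results, 1238 kept their direction and their side of the threshold, 64 newly passed, 33 no longer passed and 39 changed sign, and 13 values of the knockdown experiment, which has no test with a replicate left out, moved by more than the spread between replicates. Of the recomputed levels 170 moved by less than the spread between replicates and 26 by more. Depth limits Sox10 and Olig2, whose pulldowns hold as few as 0 and 1 counts, and where a cause is not named it was not tested.

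The number of members past the threshold changed by over 1.5 times as follows, each beside the number of genes called of all tested under the same setting (13003 in the KCl experiment, if no other is given). In the resting TurboID-PSD95 pulldown over input (1 member, 3258 genes) it was 2 with the length trend removed (1834 genes), 4 with the replicate block (4064), 3 with the compared groups alone (4480 of 12147), 2 against the mean of both inputs (4048) and 0 to 1 with a replicate left out (0 to 2890 genes). In the depolarized TurboID-PSD95 ratio (1 member, 1637 genes) it was 2 with the length trend removed (696), 0 with the compared groups alone (0 of 11817, with 2551 at an unadjusted p under 0.05), 2 against the mean of both inputs (2340) and 0 to 1 with a replicate left out (3 to 1656). In the resting Pan-TurboID ratio (2 members, 1241 genes) it was 4 with the replicate block (2414), 4 with the compared groups alone (3981 of 12314) and 0 to 1 with a replicate left out (0 to 1221). In the depolarized Pan-TurboID ratio (0 members, 1140 genes) it was 1 with RLE size factors (1251), 2 with CDS totals (1042), 2 with the likelihood ratio test (1824), 3 with DESeq2 (2249), 2 with the length trend removed (331) and 4 with the replicate block (2430). In the KCl inputs (0 members, 1995 genes) it was 2 with CDS totals (1966), 2 with the likelihood ratio test (2369), 2 with DESeq2 (2523), 4 with the replicate block (2539), 5 with the compared groups alone (2591 of 12614) and 0 to 2 with a replicate left out (515 to 2098). In the KCl TurboID-PSD95 pulldowns (0 members, 855 genes) it was 1 with the replicate block (1267) and 0 to 1 with a replicate left out (92 to 1446). The resting knockdown ratio (3 members, 5561 of 12223 genes) gave 5 with the length trend removed (4021), and the knockdown inputs after KCl (1 member, 2353 genes) gave 2 with the compared groups alone (3663 of 12295). The resting knockdown against resting inputs (5 members, 2159 of 13212 genes) gave 3 without the filter (2118 of 16996), 2 with the compared groups alone (1979 of 12721) and 0 to 6 with a replicate left out (79 to 1324). The depolarized pair (2 members, 2549 genes) gave 1 without the filter (2474), 1 with the compared groups alone (862 of 12171) and 0 to 3 with a replicate left out (50 to 2236). In these last 2 comparisons, leaving out replicate 1 or 2 leaves 1 knockdown library, whose spread is assumed to be that of the other groups. Smaller changes, all of 1 member, were 6 for the DHPG ratio (5 members, 9770 of 12257 genes) with CDS totals (9589), without the filter (10133 of 16673) and without replicate 3 (9593 of 12341), 4 for the resting knockdown ratio with CDS totals (5528), the likelihood ratio test (6089) and the compared groups alone (6000 of 12322), 5 for the depolarized knockdown ratio (4 members, 5964 genes) with the likelihood ratio test (6475) and the length trend removed (4290), and 4 for the knockdown pulldowns after KCl (3 members, 2711 genes) with the length trend removed (2705) and 2 with the compared groups alone (1866 of 11054). The DHPG inputs (7 members, 3722 of 13212 genes) gave 6 without replicate 2 (1123 of 13451) or 3 (2258 of 13031), the resting knockdown against resting inputs 6 with the replicate block (1826), and the depolarized pair 3 with the likelihood ratio test (3144), DESeq2 (2872) and the replicate block (2104).

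Signs changed mostly near 0. With the length trend removed Pdgfra turned to -0.35 in the resting TurboID-PSD95 ratio, Cspg4 to -0.045 in the resting Pan-TurboID and -0.41 in the depolarized knockdown ratio, Pdgfra to 0.077 and Cspg4 to 0.031 in the knockdown inputs after KCl, and Ptprz1 to -0.14 between depolarized inputs. For the shift of the ratio with KCl, Cspg4 turned to -0.0041 with RLE, -0.0086 with DESeq2, -0.029 with the highest-count transcript and -0.0011 with the length trend removed, and Cspg5 to -0.062 with the highest-count transcript. In the KCl Pan-TurboID pulldowns Ptprz1 turned to 0.013 with RLE and DESeq2, 0.12 with the length trend removed and 0.0052 with the replicate block. In the resting knockdown ratio Cspg4 turned to 0.012 with RLE and 0.011 with DESeq2, and Sox10 to -0.057 with the replicate block in the knockdown pulldowns after KCl.

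With each replicate left out in turn, these results took both signs. Pdgfra ranged from -0.059 to 0.13 in the resting and -0.39 to 0.059 in the depolarized TurboID-PSD95 ratio. Beyond Pan-TurboID, Olig2 ranged from -0.25 to 0.92 and Sox10 from -0.19 to 0.77. For the shift of the ratio with KCl the ranges were -0.12 to 0.24 for Cspg4, -0.22 to 0.40 for Olig1, -0.025 to 0.58 for Olig2, -0.69 to 1.34 for Sox10 and -0.11 to 0.30 for Cspg5. In the KCl Pan-TurboID pulldowns they were -0.85 to 0.029 for Cspg4, -0.53 to 0.43 for Olig2 and -0.11 to 0.094 for Ptprz1. In the resting knockdown ratio they were -0.12 to 0.027 for Cspg4 and -2.22 to 0.62 for Sox10. Sox10 ranged from -0.17 to 1.07 in the knockdown inputs and -0.46 to 0.85 in the knockdown pulldowns after KCl, and between depolarized inputs Sox10 ranged from -0.31 to 0.25 and Ptprz1 from -0.025 to 0.11.

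The study states that resting and activated samples of a biological replicate were handled at the same time, which the replicate block takes up. Between depolarized and resting libraries of the KCl experiment, deviations of same-numbered samples did not go together (correlations of -0.187 to 0.167 in 48 same-numbered pairs, against 0.0951 to 0.524 in 36 within a condition). With that block Cspg4 (-0.95, FDR = 0.00832), Sox10 (-1.11, FDR = 0.0260), Cspg5 (-0.34, FDR = 0.0376) and Olig1 (-1.06, FDR = 0.0391) passed in the inputs and Cspg4 (-1.15, FDR = 0.0375) in the TurboID-PSD95 pulldowns. Across experiments same-numbered libraries share only a number (correlations of -0.17 to 0.0763), and with that block Cspg4 passed between resting knockdown and resting inputs (-1.08, FDR = 0.0235), and Olig2 between the depolarized ones (-1.28, FDR = 0.0347).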
